A study of Homo sapiens with 4 samples.

Results

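Ubiquitin conjugation and removal genes were taken from RNA sequencing of RCC4 cells, a human clear cell renal carcinoma line labelled as epithelial. They were chosen by gene symbol: every listed gene whose symbol begins with UBE, USP, OTUD, RNF, TRIM, FBXO, FBXL, FBXW, KLHL, KCTD, CUL, HERC, NEDD4, SMURF, MARCHF or SENP, leaving out read-through genes, of which SENP3-EIF4A1 was the 1 found. This gave 21 genes of the 1176 in the deposited tables. Cells labelled wild type had been infected with a control hairpin lentivirus (shControl, n = 2 libraries), and cells labelled as MIRE knockdown with a hairpin lentivirus against MIRE (shMIRE, n = 2). All 4 libraries were from day 3. MIRE is a RefSeq synonym of the long non-coding RNA gene SAP30-DT. MIRE itself was not analysed here, so its depletion was not checked, and the labels do not say how many hairpin sequences were used. The labels do not state whether replicates were infected separately. The p-values therefore describe the spread among these 4 libraries, and it may be technical.

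Ubiquitin is passed from an activating enzyme to an E2 conjugating enzyme and then, with the help of an E3 ligase, to a substrate. RING ligases bring the charged E2 and the substrate together, HECT ligases take the ubiquitin onto themselves first, and cullin-RING ligases pick substrates through exchangeable adaptors, which carry an F-box for CUL1 or a BTB fold for CUL3. Deubiquitinases of the USP family take ubiquitin off again. The kidney tumour suppressor VHL, which RCC4 cells lack in functional form, is itself a substrate receptor of a cullin-RING ligase.

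The deposited tables are limited to genes whose group means differ by a ratio of about 2 or more, in either direction. The values are whole numbers that look scaled between libraries and rounded, and are called values here. Per library the listed values added up to 2002994 to 2514039, while total library depth is unknown. With limma on log2(value + 1), 97.5% of all listed genes passed at an adjusted p under 0.05, 38.5% higher and 59.0% lower in shMIRE, so a pass says little about any one of them. Of 10 markers of epithelial and renal carcinoma cells 0 were listed, so the labelled cell type could not be checked. The leukocyte marker ITGAM (1 of 5 listed), the fibroblast marker COL1A1 (1 of 4) and 0 of 4 endothelial markers were listed. In bulk RNA, fewer cells of a type and less RNA per cell cannot be told apart.

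All 21 genes passed, 14 lower and 7 higher in shMIRE, and the groups overlapped in 0 of the 21, against no overlap in 99.0% of all listed genes. Lower genes made up 66.7% of the 21 and 60.6% of all listed genes. The median log2 fold change was -1.12 for the 21 genes and -1.16 for all listed genes, so the set as a whole lay close to its background. The classes were small, and their counts are read beside the 60.6% lower among all listed genes. Of 11 cullin adaptors 8 fell (72.7%), with all 5 KCTD genes among them. Both USP genes fell, and the 8 RING genes divided into 4 higher and 4 lower (50%). Under these prefixes there were 0 E2, 0 HECT and 0 cullin genes. No class was tested against another.

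**Figure D1:**
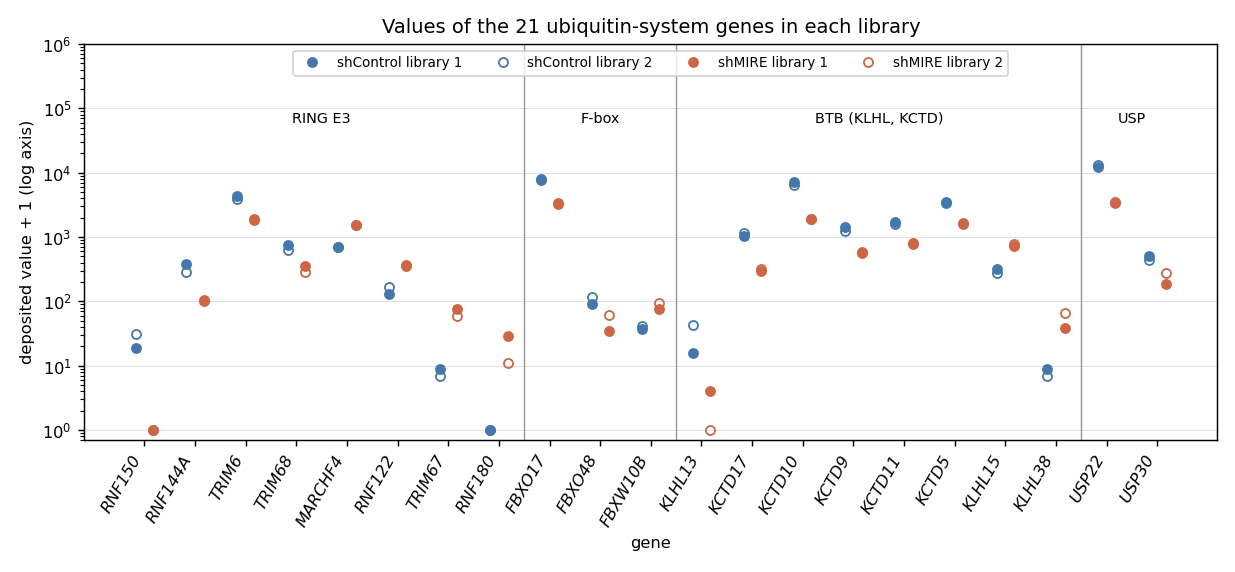
Deposited value + 1 on a log axis for each of the 21 genes, grouped by class, with 1 point per library (blue shControl, orange shMIRE; filled library 1, open library 2). The 5 KCTD genes, USP22 and FBXO17 lie at high values with close replicates, while RNF150, RNF180, KLHL13, KLHL38 and TRIM67 reach values near 0 in 1 group.

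The KCTD genes, which encode BTB proteins, several of them known as adaptors of CUL3, formed the largest family, with 5 of the 21 KCTD genes that RefSeq annotates as protein-coding. KCTD10 (ENSG00000110906, chromosome 12, 109448656 to 109477544, GENCODE 29 on GRCh38) belongs to a group of CUL3 adaptors known for acting on RhoB. Its values were 7235 and 6539 in shControl and 1934 and 1928 in shMIRE. It fell 3.57-fold (log2 fold change -1.83, SE 0.08, limma adjusted p = 0.000106), and both shMIRE libraries stood far below both shControl libraries. KCTD17 (ENSG00000100379, chromosome 22, 37051736 to 37063390), an adaptor known for the removal of trichoplein when cilia form, had 1053 and 1174 in shControl against 299 and 316 in shMIRE. That is a 3.62-fold fall (log2 fold change -1.85, SE 0.12, limma adjusted p = 0.000177). The replicates differed by far less than the groups.

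The other KCTD genes fell less. KCTD5, an adaptor known for acting on G protein beta-gamma subunits, had 3478 and 3366 in shControl and 1645 and 1620 in shMIRE, 2.10-fold lower. KCTD11, known as an antagonist of Hedgehog signalling that acts on HDAC1, had 1717 and 1617 against 806 and 765, 2.12-fold lower. KCTD9 had 1417 and 1220 against 575 and 572, 2.30-fold lower. Adjusted p with limma was 0.000174 for KCTD5, 0.000327 for KCTD11 and 0.000478 for KCTD9. The unequal size of these falls can be read within each library. The ratio of the KCTD10 value to the KCTD5 value was 2.08 and 1.94 in shControl and 1.18 and 1.19 in shMIRE, and that of KCTD17 to KCTD5 was 0.303 and 0.349 against 0.182 and 0.195. The ratio of KCTD11 to KCTD5 was 0.494 and 0.480 in shControl and 0.490 and 0.472 in shMIRE, so these genes kept nearly the same proportion. These ratios were not tested.

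The KLHL genes, also BTB adaptors of CUL3, moved both ways. KLHL15 (ENSG00000174010, chromosome X, 23983720 to 24027186), known for acting on a regulatory subunit of the phosphatase PP2A, rose 2.52-fold, from 321 and 279 in shControl to 725 and 790 in shMIRE (log2 fold change 1.34, SE 0.14, limma adjusted p = 0.000648). KLHL38 rose from 8 and 6 to 38 and 64 (limma adjusted p = 0.00334). KLHL13, whose product works with KLHL9 to move Aurora B on mitotic chromosomes, fell from 15 and 42 to 3 and 0 (limma adjusted p = 0.0114). Both KLHL13 and KLHL38 were low in all 4 libraries, and the shControl values of KLHL13 differed from each other by more than its lower shControl value stood above shMIRE. The adjusted p of KLHL13 with limma was 0.0916 and 0.159 without shControl replicate 1 or 2, 0.0993 without shMIRE replicate 2 and 0.0683 with quantile normalisation, and that of KLHL38 was 0.0576 without shControl replicate 2.

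Among the F-box genes, FBXO17 (ENSG00000269190, chromosome 19, 38941401 to 38975910), of the F-box family that binds glycoproteins, was the most abundant. Its values were 7690 and 8067 in shControl and 3420 and 3309 in shMIRE, a 2.34-fold fall (log2 fold change -1.23, SE 0.07, limma adjusted p = 0.000123). FBXO48, whose product is known for the removal of active AMPK, had 90 and 115 in shControl against 33 and 61 in shMIRE (limma adjusted p = 0.0396). FBXW10B went from 36 and 41 in shControl to 76 and 94 in shMIRE (limma adjusted p = 0.0190). FBXO48 and FBXW10B were low, and their calls did not hold when single libraries were left out. FBXO48 with limma gave an adjusted p equal to 0.175 and 0.265 without shControl replicate 1 or 2, of 0.150 without shMIRE replicate 1, of 0.0626 with quantile normalisation and of 0.0881 once libraries were scaled to equal listed sums. FBXW10B had 0.114 and 0.0952 without shControl replicate 1 or 2 and 0.0712 without shMIRE replicate 2. FBXW10B also shares 31.3% of its exon bases with another protein-coding gene on the same strand, so the division of its reads is uncertain.

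The RING genes that fell were TRIM6, TRIM68, RNF144A and RNF150. TRIM6 (ENSG00000121236, chromosome 11, 5596109 to 5612958), known for making unanchored ubiquitin chains in the interferon response, went from 4297 and 3932 in shControl to 1930 and 1833 in shMIRE, 2.19-fold lower (limma adjusted p = 0.000216). The read-through gene TRIM6-TRIM34 covers 29.3% of the exon bases of TRIM6, so reads could have been divided between them. RNF144A (ENSG00000151692, chromosome 2, 6917392 to 7068286) is a RING-between-RING ligase known for acting on the kinase DNA-PKcs. It had 382 and 283 in shControl against 103 and 100 in shMIRE, 3.28-fold lower (log2 fold change -1.69, SE 0.23, limma adjusted p = 0.00171). TRIM68, a ligase known for its action on the androgen receptor, stood at 746 and 621 against 350 and 280, 2.17-fold lower (limma adjusted p = 0.00290, or 0.0668 without shControl replicate 1). RNF150 had 18 and 30 in shControl and was listed at 0 in both shMIRE libraries (limma adjusted p = 0.000503). RNF150 was thus low in shControl as well. Its equal values in shMIRE add no spread to the fit, so its p is not a measure of strength beside the more abundant genes.

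The RING genes that rose were MARCHF4, RNF122, TRIM67 and RNF180. MARCHF4 (ENSG00000144583, chromosome 2, 216257865 to 216372027), a membrane ligase known for lowering surface MHC class I, was the most abundant of them. Its values were 707 and 689 in shControl and 1518 and 1511 in shMIRE, 2.17-fold higher (log2 fold change 1.12, SE 0.09, limma adjusted p = 0.000264), with almost no spread between replicates. RNF122, known for acting on the RNA sensor RIG-I, stood at 127 and 166 against 360 and 354, 2.44-fold higher (limma adjusted p = 0.00296, or 0.0593 and 0.0564 without shMIRE replicate 1 or 2). TRIM67, known in mouse for its part in axon guidance, rose from 8 and 6 to 75 and 58 (limma adjusted p = 0.00124). RNF180, known as a gene silenced by methylation in gastric cancer, was listed at 0 in both shControl libraries and stood at 28 and 10 in shMIRE (limma adjusted p = 0.00191, or 0.0609 and 0.0610 without shControl replicate 1 or 2). TRIM67 and RNF180 were thus low in shMIRE as well.

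Both listed USP genes, which encode deubiquitinases, fell. USP22 (ENSG00000124422, chromosome 17, 20999593 to 21043760) encodes the subunit of the SAGA coactivator complex that takes ubiquitin off histone H2B. It had the highest value of the 21 genes in shControl, 12368 and 12985, against 3407 and 3502 in shMIRE. It fell 3.67-fold (log2 fold change -1.88, SE 0.06, limma adjusted p = 0.000103). USP30 (ENSG00000135093, chromosome 12, 109023089 to 109088026), a deubiquitinase of the outer mitochondrial membrane that opposes Parkin in mitophagy, went from 506 and 438 in shControl to 186 and 278 in shMIRE, 2.03-fold lower (log2 fold change -1.05, SE 0.24, limma adjusted p = 0.0106). The shMIRE libraries of USP30 differed from each other by more than its shControl libraries did. The adjusted p of USP30 with limma was 0.151 and 0.116 without shControl replicate 1 or 2 and 0.0593 without shMIRE replicate 1. Antisense genes cover 5.79% and 7.40% of the exon bases of USP22 and 4.54% of those of USP30. An antisense gene also covers 13.8% of the exon bases of KCTD11, and another protein-coding gene on the same strand 8.33% of those of FBXO17. The protocol names no strand-marking step, so reads of the antisense pairs cannot be told apart. For FBXO17 and its same-strand neighbour, strand could not separate shared reads in any case.

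**Figure D2:**
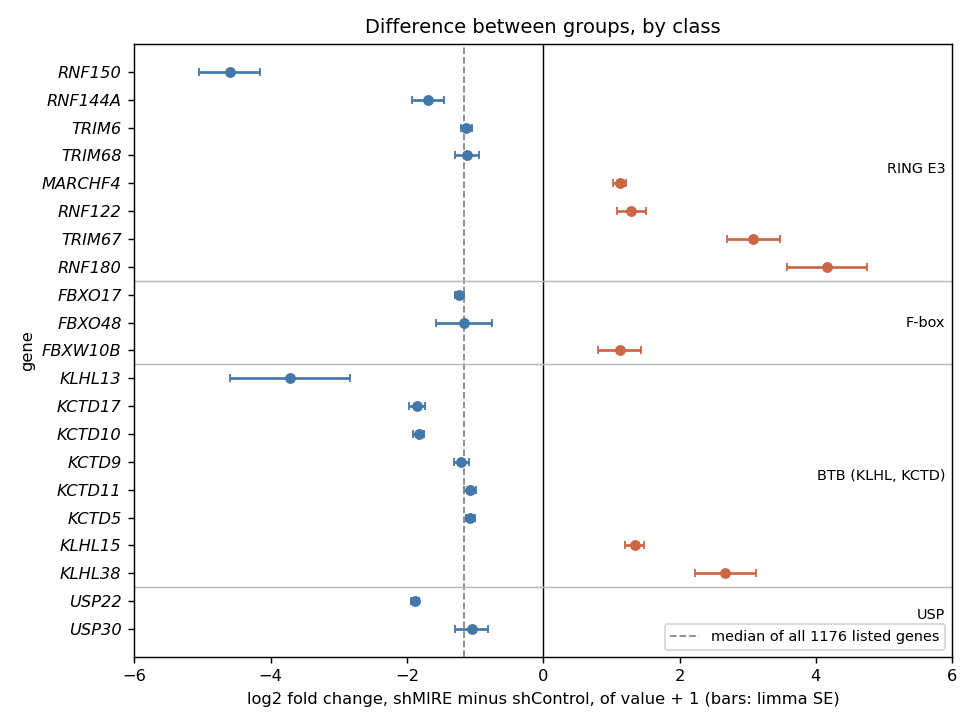
Log2 fold change of value + 1, shMIRE minus shControl, for the 21 genes by class (points: limma estimate; bars: SE; blue lower, orange higher), with the median of all 1176 listed genes as a dashed line at -1.16. All 5 KCTD genes and both USP genes lie to the left of 0, and the RING genes lie on both sides.

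No E2 enzyme, HECT ligase, cullin or SUMO protease with these symbol prefixes was among the listed genes: 0 of 36 E2 genes, 0 of 14 HECT genes, 0 of 8 cullin genes and 0 of 7 SENP genes that RefSeq annotates as protein-coding under these symbols. By the same count 8 of 174 RING genes (4.60%), 3 of 63 F-box genes (4.76%), 8 of 58 BTB adaptor genes (13.8%) and 2 of 86 USP and OTUD genes (2.33%, with 25 USP17L copies in the 86) were listed, against 1157 of 19933 protein-coding genes (5.80%). These shares describe who was listed. Genes not expressed in these cells could not have been listed, and the level of a gene outside the tables was not analysed here.

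Levels were compared between genes per kilobase of annotated exon. That length joins all annotated exons of a gene and can exceed the transcript made in these cells. The order between genes depends on it, and other lengths were not tried. In shControl the order began with USP22 at 1860 ± 64 per kilobase, followed by FBXO17 at 1590 ± 54, TRIM6 at 1040 ± 65 and KCTD5 at 1000 ± 23 (SD, n = 2). The libraries of TRIM6 and KCTD5 overlapped, and those of USP22 and FBXO17 did not. In shMIRE, FBXO17 came first at 678 ± 16 per kilobase and USP22 next at 507 ± 9.9, ahead of KCTD5 at 477 ± 5.2 and TRIM6 at 477 ± 17. MARCHF4, which was the tenth in shControl at 157 ± 2.9 per kilobase, just below TRIM68 and overlapping it, was the fifth in shMIRE at 341 ± 1.1. Within each library, the ratio of the USP22 value to the FBXO17 value was 1.61 in each shControl library and 0.996 and 1.06 in shMIRE, without rescaling between libraries. Of 14 genes with a mean value of at least 100, 11 fell and 3 rose, and of 7 below it, 3 fell and 4 rose. The difference between these counts was not tested. Over all listed genes the lower share was 56.9% at or above that mean and 68.4% below it.

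USP30 and KCTD10 lie 361 kb apart on chromosome 12, with 4 protein-coding genes between them, of which 0 were listed. KCTD10 shares 143 bp of exon with UBE3B, a HECT ligase gene on the opposite strand, which was not among the listed genes. TRIM68 and TRIM6 lie 988 kb apart on chromosome 11 with 40 protein-coding genes between them, 0 of them listed.

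Other genes of the ubiquitin system, from a list of 266 genes without these prefixes, gave 14 listed genes, of which 9 fell and 5 rose. The lower share was 64.3%, close to the 60.6% of all listed genes. Of all protein-coding genes 5.8% were listed. Among substrate receptors of cullin ligases, SOCS1, an inhibitor of cytokine signalling that carries a SOCS box, went from 56 and 79 in shControl to 1016 and 827 in shMIRE, 13.7-fold higher (log2 fold change 3.76, SE 0.25, limma adjusted p = 0.000175). ASB2, another SOCS-box protein, rose 3.59-fold to 1593 and 1609. DCAF7, a WD40 protein that binds DDB1, fell 2.80-fold to 1364 and 1547. KBTBD7, a BTB adaptor of CUL3, fell 2.34-fold (limma adjusted p = 0.00236, or 0.0515 without shControl replicate 1).

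Among further ligases, TRIP12, a large HECT ligase, had 8286 and 6614 in shControl against 2452 and 2500 in shMIRE, 3.01-fold lower (limma adjusted p = 0.000264). The RING ligase genes COP1 and PJA1 fell 2.23-fold and 2.35-fold. BIRC3, an inhibitor of apoptosis, and PELI1, a ligase of Toll-like receptor signalling, rose 2.43-fold and 2.40-fold, the former with a limma adjusted p of 0.0520 without shMIRE replicate 1. HECW1 (24 and 25 in shControl, 0 and 4 in shMIRE) and PELI2 (8 in each shControl library, listed at 0 in shMIRE) were low. The adjusted p of HECW1 with limma was 0.151 and 0.159 without shControl replicate 1 or 2, and that of PELI2 was 0.319 with quantile normalisation.

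Among further deubiquitinases, YOD1, of the OTU family, rose 3.46-fold, from 718 and 574 to 2106 and 2367 (limma adjusted p = 0.000289). UCHL1 and UCHL3, of the UCH family, fell 4.75-fold and 2.06-fold. With limma the adjusted p for UCHL1 came to 0.0559 and 0.0853 without shControl replicate 1 or 2 and 0.0635 without shMIRE replicate 1, and for UCHL3 to 0.129, 0.0956 and 0.0516 in the same order. Of the 16 genes for ubiquitin, its relatives and their E1 enzymes 0 were listed, and of 51 proteasome and shuttle genes also 0. The share over all protein-coding genes was 5.8%, and these counts were not tested against it.

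**Figure D3:**
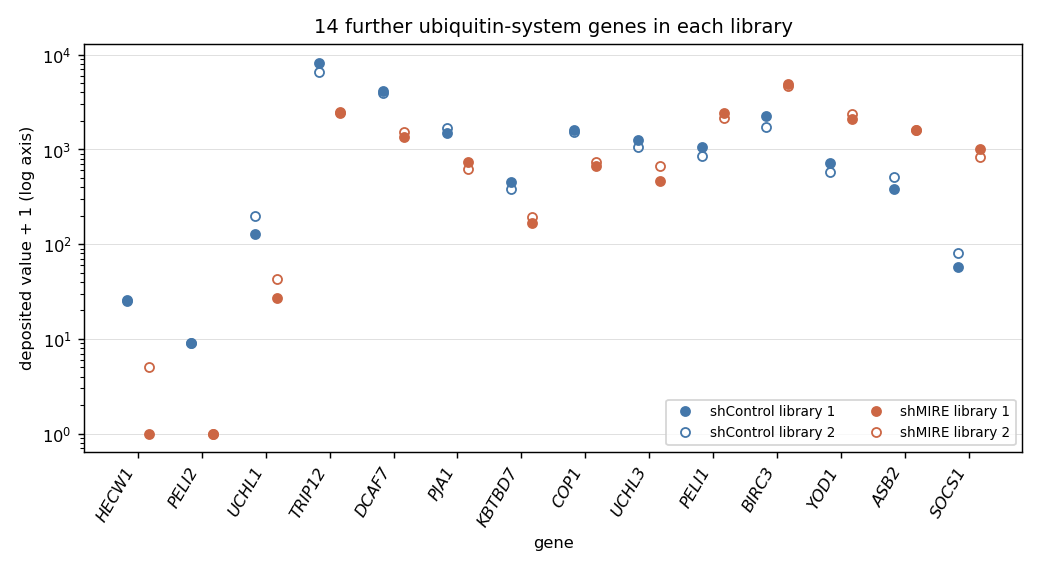
Deposited value + 1 on a log axis for the 14 further ubiquitin-system genes, ordered by log2 fold change, with 1 point per library (blue shControl, orange shMIRE; filled library 1, open library 2). SOCS1 shows the widest gap upward, from 56 and 79 to 1016 and 827, and TRIP12 has the highest value in shControl.

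The heptamer GCTGTGT, known from earlier results of these data to be more frequent in the 3′ UTRs of lower genes, was looked up on the transcript strand in the longest annotated 3′ UTR of each gene in GENCODE 29. Of the 14 lower genes 8 held it (57.1%), and of the 7 higher genes 3 did (42.9%), against 41.1% of 704 lower and 18.3% of 459 higher genes among all listed genes with a 3′ UTR. The median UTR length was 1856.5 bases for the 14 and 1447 for the 7, against 1286.5 and 1653 for all listed lower and higher genes. The part of UTR length in these shares was not tested. The matches in lower genes are shown with 10 bases on each side, with the heptamer in capitals, in 5′ to 3′ order and hg38 coordinates, to show the sequence around each.
KCTD10 (chr12:109451373-109451399, minus strand): cgttgaacaaGCTGTGTctaagatctc
KCTD17, first match (chr22:37062798-37062824, plus strand): gcaatgtctgGCTGTGTctctccggca
KCTD17, second match (chr22:37063335-37063361, plus strand): ttgcttctcaGCTGTGTccgaccccac
USP22, first match (chr17:21001520-21001546, minus strand): cagagatgtgGCTGTGTctagtacaac
USP22, second match (chr17:20999652-20999678, minus strand): attttgaggaGCTGTGTcactcctcct
RNF144A, first match (chr2:7040421-7040447, plus strand): aacgctgtaaGCTGTGTactgttataa
RNF144A, second match (chr2:7042634-7042660, plus strand): gtctggctctGCTGTGTagtccatagc
FBXO17 (chr19:38942125-38942151, minus strand): tggccatcatGCTGTGTgacaaaccag
KLHL13 (chrX:117898608-117898634, minus strand): ctttttaaatGCTGTGTattgggtgta
USP30 (chr12:109087970-109087996, plus strand): ttttgtatctGCTGTGTattatagcaa
KCTD9 held 1 match as well. The 3 higher genes with matches are shown for comparison.
MARCHF4 (chr2:216258860-216258886, minus strand): ttctcctgggGCTGTGTtctgcaggca
TRIM67, first match (chr1:231217232-231217258, plus strand): gctgctcggtGCTGTGTtgcagtctct
TRIM67, second match (chr1:231219782-231219808, plus strand): tgagccggtaGCTGTGTttgttgacca
FBXW10B (chr17:15565873-15565899, minus strand): aattgaaaggGCTGTGTgcagtacggg

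The 3 lower genes with 2 matches, USP22, KCTD17 and RNF144A, fell 3.67-fold, 3.62-fold and 3.28-fold. KCTD10, with 1 match, fell 3.57-fold, and the other genes with 1 match and a mean value of at least 100, FBXO17, KCTD9 and USP30, fell 2.34-fold, 2.30-fold and 2.03-fold. The 4 lower genes without a match at that mean, TRIM6, TRIM68, KCTD11 and KCTD5, fell 2.10-fold to 2.19-fold. The limit on the mean leaves out 3 lower genes. RNF150, with 0 matches in a UTR of 8454 bases, had the most negative log2 fold change of the 14 (-4.60). KLHL13, with 1 match, stood at -3.71, and FBXO48, with 0 matches, at -1.16. RNF150 and KLHL13 reach 0 in shMIRE, so the size of their change depends on the pseudocount. With a pseudocount of 0.1 they stood at -7.87 and -5.5. Gene by gene, fold size did not follow the number of matches over all 14. The median fold over all 14 was 2.18 at 0 matches (6 genes), 2.34 at 1 (5 genes) and 3.62 at 2 or more (3 genes). At a mean value of at least 100, the median fold was 3.28 for the 7 with a match and 2.15 for the 4 without. Over all listed lower genes with such a mean it was 2.71 with a match (240 genes, quartiles 2.26 to 3.35) and 2.40 without (209 genes, quartiles 2.17 to 2.94). Without the limit on the mean, the median over all listed lower genes was 2.88 with a match and 3.09 without, the other way round. By number of matches it was 3.09 at 0, 2.85 at 1 and 2.98 at 2 or more. UTR length moved with the matches: its median was 2095 bases for the 7 genes and 1610 for the 4, and 2049 and 869 over all listed lower genes at that mean. The part of UTR length in these folds was not tested, and a match is a description of letters, not a site.

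**Figure D4:**
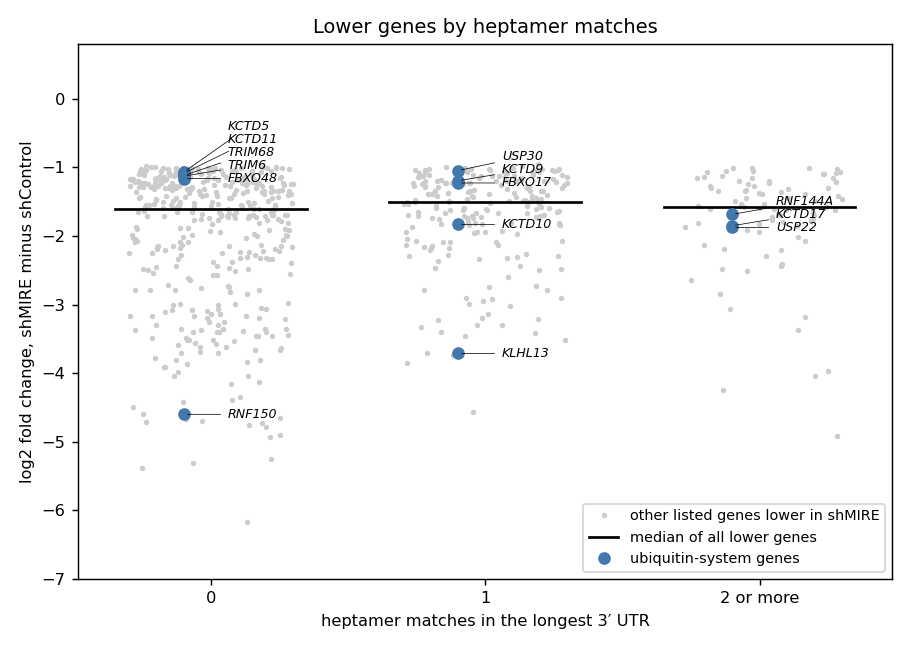
Log2 fold change, shMIRE minus shControl, of all listed genes lower in shMIRE by the number of heptamer matches in the longest 3′ UTR (grey points; horizontal jitter is arbitrary), with medians as black lines and the 14 lower ubiquitin-system genes in blue. USP22, KCTD17 and RNF144A lie together at 2 or more matches, between -1.69 and -1.88, and KCTD5, KCTD11, TRIM6 and TRIM68 near -1.1 at 0 matches. The lowest of the 14, RNF150 at -4.60, has 0 matches, and KLHL13 at -3.71 and KCTD10 at -1.83 have 1. RNF150 and KLHL13 have values near 0 in shMIRE, so the size of their change depends on the pseudocount.

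Promoters of 18 of the 21 genes were in the RefSeq table (GRCh38.p14, 250 bases before to 50 after the gene start). The GC box GGGCGG, on either strand, was in 11 of 18 (61.1%), against 58.5% of all 15743 protein-coding promoters and 64.4% of the 871 of listed genes. The AP-1 motif TGANTCA, which reads the same on both strands, was in those of KCTD11, KLHL15 and TRIM67 (16.7%, against 5.74% of all), and the CCAAT box, on either strand, in those of FBXO48, TRIM68 and USP30 (16.7%, against 36.4%). The E-box CACGTG was in 0 of 18, against 8.85% of all, and the CRE motif TGACGTCA in 0 of 18, against 2.59%. Among the 871 promoters of listed genes the shares were 6.2% for AP-1, 34.2% for the CCAAT box, 7.23% for the E-box and 3.21% for CRE. None of these shares was tested. The 250 bases before the start of KCTD17, 1 of the KCTD genes, are shown as an example. They hold 5 GC boxes, in capitals, 2 of them overlapping on the minus strand, and are 73.2% G or C.
KCTD17 promoter (chr22:37051492-37051741, plus strand): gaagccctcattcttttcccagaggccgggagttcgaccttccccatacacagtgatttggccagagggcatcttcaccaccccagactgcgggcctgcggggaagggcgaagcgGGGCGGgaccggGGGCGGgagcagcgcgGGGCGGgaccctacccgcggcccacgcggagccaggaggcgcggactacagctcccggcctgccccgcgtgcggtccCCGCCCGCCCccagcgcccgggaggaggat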

How the data were processed

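Per the labels' protocols, libraries came from poly-T selected RNA (Illumina TruSeq). The submitters' processing notes name build hg38, DESeq2 1.20.0, HISAT2 2.0.5 and featureCounts 1.5.0-p3 without saying what each was used for. The values the authors deposited were handled as a score: whole numbers for 1176 genes that look scaled between libraries and rounded. How they were scaled, and by what rule genes were listed, is not stated in those notes or the labels. The listed genes differ by about 2-fold or more, so single p-values are not independent evidence.

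Symbols were matched for 1175 of the 1176 genes. All listed genes (mean value above 1) were fitted with limma 3.58.1 in R 4.3.3 on log2(value + 1), with an intensity trend and no covariates. P-values were two-sided, adjusted by Benjamini-Hochberg over all listed genes and called at 0.05. Folds are ratios of group means. The fit was tested on simulated data in which most genes were unchanged. The listed genes differ from that setting, so the simulation gives no error rate for them. Every one of the 21 genes is named, and the library values follow a rule of size of change and level in each class. The genes, classes and lists were chosen with earlier results of these data known. Alternatives were quantile normalisation, equal sums, no trend, other filters, a pseudocount of 0.1, a replicate block, a threshold of 0.01 and each library left out. Exon lengths and UTRs come from GENCODE 29, and promoters from RefSeq.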

Additional observations from a re-analysis of the deposited data

How the results depend on the processing

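All 21 genes kept their direction under every alternative run. Listed genes differ about 2-fold or more between groups, so the listing nearly fixed this outcome in advance. Changes of direction were not counted over all listed genes. The 7 higher and 14 lower calls with limma were 7 and 12 with quantile normalisation, 7 and 13 after scaling to equal sums, and 6 and 11 at an adjusted p under 0.01. Over all 1176 listed genes these settings called 1000, 1124 and 920. They stayed at 7 and 14 without the intensity trend, with no filter, with a mean above 5, with a pseudocount of 0.1 and with the replicate number as a block. Libraries sharing a number deviated from their group means with a correlation of 0.0321 across genes, and no pairing was assumed. The count over all listed genes, 1147, was 1104 without the trend, 1116 of 1135 with a mean above 5, 1116 with the pseudocount of 0.1 and 1175 with the block. When 1 library was left out, its group kept a single library, whose spread was borrowed from the other group. Then higher calls ranged from 4 to 6 (4 without shControl replicate 2), lower calls from 10 to 13, calls over all listed genes from 826 to 897 and the median log2 fold change of the 21 genes from -1.15 to -1.04. How many calls survived every omission was counted for the 21 genes only, so that count has no background and is not given. The 2 rescalings, quantile normalisation first, shifted the median over all listed genes upward by 0.32 and 0.30 and moved that of the 21 genes from -1.12 to -0.86 and -0.82. Relative to those shifts, the set moved with its background. Depth limits are unknown without library totals, and no count test was run on values that look scaled.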
